A study of Mus musculus with 11 samples.

Results

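The genes described here encode 10 regulators of mRNA storage and translation in male germ cells: the Y-box proteins Ybx1, Ybx2 and Ybx3, the poly(A)-binding proteins Pabpc1 and Pabpc2, the DAZ-family proteins Dazl and Boll, and the RNA-binding or translation factors Elavl1, Tarbp2 and Mif4gd. Members were found by symbol, current or older, in the platform's annotation, and every probe of each was taken, which gave 26 probes of the 46643 on the array, for 10 of its 19406 named genes. All 26 were among the 27986 probes that stayed after the dimmest 40% by mean level were left out. The microarrays were Illumina Mouse WG-6 BeadChips, and the study asked whether loss of 1 allele of Dnmt3L, a cofactor of the de novo DNA methyltransferases, alters transcription during and after meiosis. RNA came from germ cells separated by centrifugal elutriation, with the testes of 10 mice pooled in each preparation.

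There were 4 groups: 3 arrays of wild type spermatocytes, 2 of Dnmt3L heterozygous spermatocytes, 3 of wild type spermatids and 3 of Dnmt3L heterozygous spermatids. For heterozygous spermatocytes the methods count 1 preparation more than the labels, and it is not analysed here. The labels give the spermatocytes as pachytene cells and the spermatids as round, from C57Bl/6 mice aged 8 to 12 weeks. Heterozygous mice carry 1 inherited knockout allele, in which a LacZ reporter with stop codons interrupts the coding sequence, and wild type mice carry none. By the study, single spermatids of a heterozygous male may differ in genotype but are alike in mRNA and protein, which pass through cytoplasmic bridges. The labels name no treatment. By the methods, each cell type was hybridised on a BeadChip of its own, so cell type and BeadChip cannot be told apart in any difference between spermatids and spermatocytes. The replicate numbers name separate preparations, each a pool, so the spread is that between pools and not between mice.

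Haploid germ cells stop transcribing as their chromatin condenses, and many of the proteins needed late in sperm formation are made from mRNAs that were transcribed earlier and held back from the ribosome. Y-box proteins coat such mRNAs and keep them silent, while poly(A)-binding proteins, DAZ-family proteins and factors that recruit the cap-binding complex favour their translation. Ybx2, also known as MSY2, is the germ-cell Y-box protein of the mouse, and the Y-box family took its name from binding to the inverted CCAAT box of promoters.

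Promoters are shown for the 3 Y-box genes and for Elavl1 and Tarbp2, because the CCAAT box gave the Y-box family its name. Elavl1 and Tarbp2 were added as the genes with at least 1 probe that held the cell type difference in both genotypes under most alternatives. Not all of their probes did so. Each sequence holds the 250 bases before the annotated start, from RefSeq on GRCm38.p6, written 5′ to 3′ on the gene's strand, with CCAAT on that strand or ATTGG, its reverse complement, in capitals.
Ybx1: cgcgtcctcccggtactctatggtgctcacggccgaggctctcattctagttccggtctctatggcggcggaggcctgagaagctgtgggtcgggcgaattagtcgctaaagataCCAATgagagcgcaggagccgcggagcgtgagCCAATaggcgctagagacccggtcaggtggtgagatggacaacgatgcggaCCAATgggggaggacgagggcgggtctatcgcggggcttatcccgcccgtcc
Ybx2: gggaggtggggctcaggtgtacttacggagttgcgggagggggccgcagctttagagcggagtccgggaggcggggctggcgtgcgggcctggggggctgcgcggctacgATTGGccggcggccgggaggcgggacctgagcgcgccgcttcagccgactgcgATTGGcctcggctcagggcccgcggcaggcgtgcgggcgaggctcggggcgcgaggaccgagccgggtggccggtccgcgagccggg
Ybx3: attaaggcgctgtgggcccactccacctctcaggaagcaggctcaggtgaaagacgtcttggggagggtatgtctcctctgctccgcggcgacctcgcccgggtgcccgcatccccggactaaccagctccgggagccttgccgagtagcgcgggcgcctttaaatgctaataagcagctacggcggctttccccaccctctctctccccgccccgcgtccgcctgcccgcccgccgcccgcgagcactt
Elavl1: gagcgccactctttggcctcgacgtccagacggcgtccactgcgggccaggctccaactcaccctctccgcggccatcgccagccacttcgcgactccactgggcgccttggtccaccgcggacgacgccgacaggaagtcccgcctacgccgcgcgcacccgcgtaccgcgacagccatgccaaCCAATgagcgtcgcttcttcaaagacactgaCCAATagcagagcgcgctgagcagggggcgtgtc
Tarbp2: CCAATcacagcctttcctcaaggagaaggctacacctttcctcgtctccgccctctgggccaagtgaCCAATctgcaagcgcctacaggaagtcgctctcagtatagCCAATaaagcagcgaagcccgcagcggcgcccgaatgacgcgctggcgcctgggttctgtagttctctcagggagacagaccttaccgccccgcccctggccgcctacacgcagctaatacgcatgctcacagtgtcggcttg
The windows lie at chr4:119294514-119294763 on the minus strand for Ybx1, chr11:69935649-69935898 on the plus strand for Ybx2, chr6:131388451-131388700 on the minus strand for Ybx3, chr8:4325101-4325350 on the minus strand for Elavl1 and chr15:102517942-102518191 on the plus strand for Tarbp2. The Ybx1 window holds 3 boxes that begin 135, 103 and 52 bases before the start, and the Tarbp2 window holds 3 that begin 250, 183 and 143 bases before it. The Ybx2 window holds 2 boxes, both as ATTGG, and Elavl1 holds 2 as CCAAT at 65 and 34 bases, whereas these letters do not occur in the Ybx3 window. Over all members, 11 promoter entries of 8 genes were found, and at least 1 entry held the box in 6 of these genes, the other carriers being Boll and Dazl. By entry that is 6 of 11, or 54.5%, against 33.8% of all 32851 promoters of the same length. A second Ybx2 entry, a second Boll entry and both Mif4gd entries had none. The motifs TGACGTCA and TATAAA, searched on both strands, occurred in none of the 11 entries and in 1.55% and 12.4% of all promoters. These are matches of letters and not measured binding sites.

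As a check of the labels, the wild type fractions were set side by side by limma with Benjamini-Hochberg adjustment: 8 of 10 round spermatid markers were higher in the spermatids and none was lower, while none of the 5 tested pachytene markers passed, with a median log2 difference of -0.60. The single Dnmt3l probe read 8.10 to 8.27 in wild type and 8.66 to 8.82 in heterozygous spermatocytes, and 10.19 to 10.91 in wild type and 9.78 to 10.96 in heterozygous spermatids. By the study this probe lies in the last exon, beyond the LacZ insertion and shared with shorter transcripts of the gene, so it checks no genotype. Macrophage and blood genes differed between the fractions: 6 of 7 were higher in wild type spermatids and their mean level lay between 7.09 and 7.41 in the spermatocyte arrays and between 9.15 and 10.59 in the spermatid arrays. Haemoglobin Hbb-bs alone was 4.73 higher on the log2 scale (SE 0.28, adjusted p = 0.000145). Of the other lists, 3 of 5 peritubular and 4 of 9 spermatogonial markers were higher in wild type spermatids, 1 of 7 Leydig markers was lower, and none of 11 Sertoli or 5 endothelial markers passed. Wild type spermatid array 3 had the highest Leydig level of its group, at 9.40 against 8.03 and 7.33, as well as the highest Sertoli and blood levels. It also had the highest round spermatid level of its group, at 12.42, and the lowest pachytene level, at 8.28. Wild type spermatocyte array 1 also had the highest Leydig and Sertoli levels of its group, at 8.51 and 9.21. Among heterozygous spermatids, array 2 was highest for both, at 8.70 and 9.37. Spermatid array 2 of each genotype had the lowest round spermatid level of its group, at 11.82 in wild type and 11.85 in heterozygous cells. The same arrays had the highest pachytene level of their groups, at 9.03 and 8.96. Wild type spermatocyte array 2 had the lowest round spermatid level of its group, at 9.61 against 10.53 and 10.58. The part of this uneven cell content in the differences below was not tested. In pooled cells, fewer cells of a type and less RNA per cell cannot be told apart.

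Between wild type spermatids and spermatocytes the regulators were, where they differed, lower in the spermatids. Of the 26 probes, 7 were lower and 0 higher at an adjusted p under 0.05, beside 27% of all 27986 probes called in either direction, 15.5% lower and 11.5% higher. In either direction the members' share was therefore near that of the array as a whole. The 7 probes belonged to Elavl1 (2 probes), Mif4gd (2 probes), Tarbp2, Pabpc1 and Ybx1. The estimate was below 0 for 22 of 26 probes and for the brightest probe of all 10 genes, and the median log2 difference was -0.39, against -0.03 over all probes. At an unadjusted p under 0.05 there were 17 of 26, beside 44.8%. The arrays of both groups did not overlap for 16 probes lower and 1 higher in spermatids, beside 52.1% of all probes in either direction, 30.9% lower and 21.2% higher. In heterozygous cells the 3 probes that passed, 2 of Elavl1 and 1 of Tarbp2, were again lower, beside 17.8% of all probes called in either direction, 9.15% lower and 8.65% higher, and the median was -0.06 against -0.02 over all probes. An unadjusted p under 0.05 was reached by 9 of 26, beside 36%, and the arrays did not overlap for 9 probes lower and 2 higher, beside 51% of all probes, 29.4% lower and 21.7% higher. The wild type count was 4 without any one of spermatocyte arrays 2 or 3 or spermatid arrays 1 or 3 of the wild type. Without that spermatid array 3, 1 of the 4 was higher, Dazl 103800048, and 3 were lower. In each of these refits fewer of all probes were called as well. A refit without a heterozygous array left the wild type estimates themselves unchanged. The heterozygous count was 5 without heterozygous spermatid array 2, with 1 higher, Pabpc1 2690253, and 4 lower. More of all probes were called there as well.

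**Figure D1:**
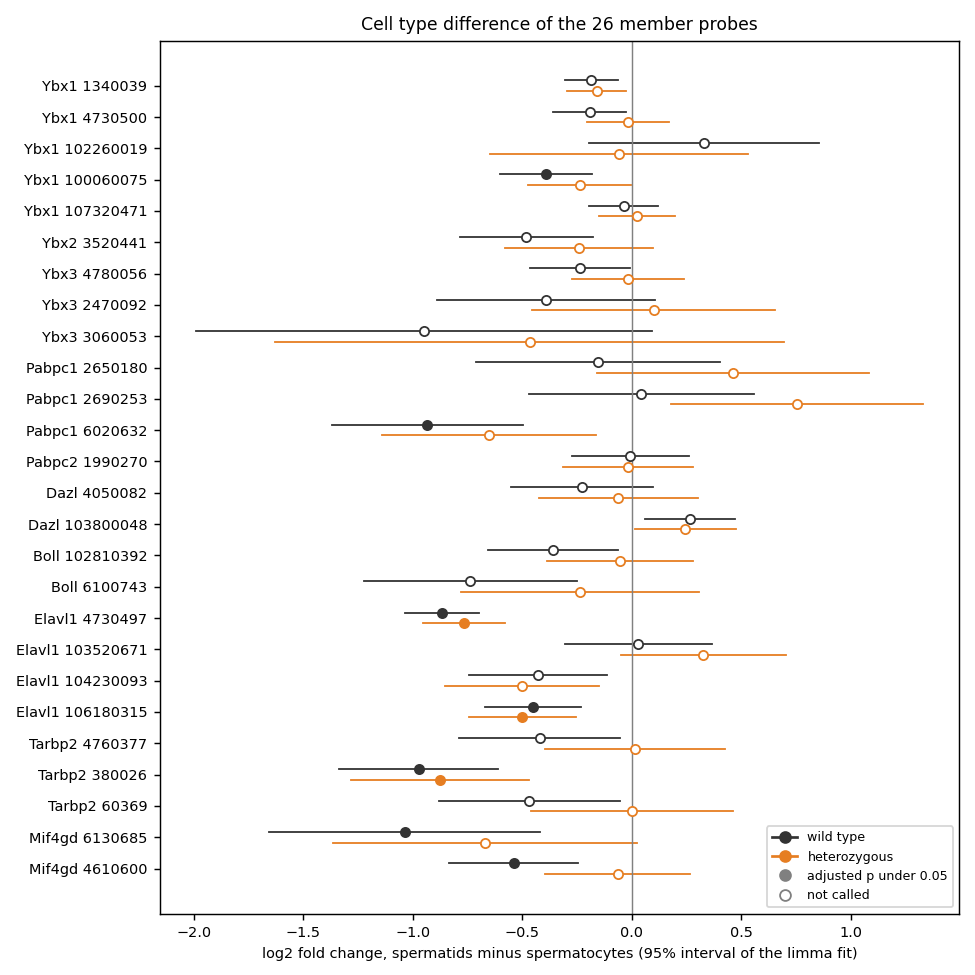
Log2 fold change of each of the 26 probes, spermatids minus spermatocytes, in wild type (dark) and heterozygous (orange) mice, with the 95% interval of the limma fit as a line and filled circles for an adjusted p under 0.05. All 7 filled wild type circles and all 3 filled heterozygous circles lie below 0.

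Of the Y-box genes, Ybx1 encodes a broadly expressed mRNA packaging protein, and its brightest probe (1340039) lay close to the top of the measured scale. It read 13.84, 13.84 and 13.74 in wild type spermatocytes, 13.84 and 13.84 in heterozygous spermatocytes, 13.62, 13.60 and 13.65 in wild type spermatids, and 13.62, 13.74 and 13.69 in heterozygous spermatids. Spermatids of the wild type were all lower than spermatocytes of the wild type, but the gap was small, -0.18 on the log2 scale (SE 0.05, adjusted p = 0.0577). Its highest value stood 0.15 below the highest value of the whole table, which leaves little room for a larger reading in spermatocytes. The probe of Ybx1 that passed (100060075), matched to a cDNA clone, read 7.32, 7.48 and 7.42 in wild type spermatocytes and 6.96, 7.19 and 6.90 in wild type spermatids. Its log2 difference was -0.39 (SE 0.09, adjusted p = 0.0279), with arrays of the groups apart. This call was kept in 5 of 11 refits that each left out 1 array, with an adjusted p of up to 0.0952. It was lost without wild type spermatocyte array 2 or 3, either heterozygous spermatocyte array, or wild type spermatid array 1 or 3. Over all alternative settings it was kept in 13 of 20. A probe of Ybx1 with a higher signal (4730500) differed by -0.19 (adjusted p = 0.154), another (102260019) by 0.33 (adjusted p = 0.513), and the dimmest (107320471) by -0.04 (adjusted p = 0.861).

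Ybx2 encodes the Y-box protein of germ cells that is required for male fertility in mice and had 1 probe (3520441). It read 13.20, 12.67 and 12.98 in wild type spermatocytes, 12.98 and 12.83 in heterozygous spermatocytes, 12.33, 12.66 and 12.42 in wild type spermatids, and 12.62, 12.64 and 12.74 in heterozygous spermatids. All spermatid arrays of the wild type lay below all of its spermatocyte arrays, though array 2 of one nearly met array 2 of the other. The log2 difference was -0.48 (SE 0.13, 95% interval -0.78 to -0.18), and its adjusted p of 0.0517 missed the threshold. It passed in 8 of 21 alternative settings, 2 of them refits that left out wild type spermatocyte array 2 or wild type spermatid array 2, with adjusted p from 0.0117 to 0.167 over all settings. In heterozygous cells the difference was -0.24 (adjusted p = 0.437).

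Ybx3, also called MSY4, shares with Ybx2 the binding of protamine mRNA in mouse testis, and its 3 probes are annotated to 2 transcripts. The brightest probe (4780056) read 13.13, 13.16 and 13.36 in wild type spermatocytes, 13.23 and 13.16 in heterozygous spermatocytes, 13.14, 13.01 and 12.79 in wild type spermatids, and 13.19, 13.09 and 13.27 in heterozygous spermatids. The groups overlapped in both genotypes. Its differences were -0.24 in wild type (adjusted p = 0.202) and -0.02 in heterozygous cells (adjusted p = 0.972). A dimmer probe (3060053) read 8.80, 8.71 and 10.55 in wild type spermatocytes, so that array 3 stood apart from its group, and its difference of -0.95 carried an SE of 0.46 (adjusted p = 0.28). The last probe (2470092) differed by -0.39 (adjusted p = 0.371).

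**Figure D2:**
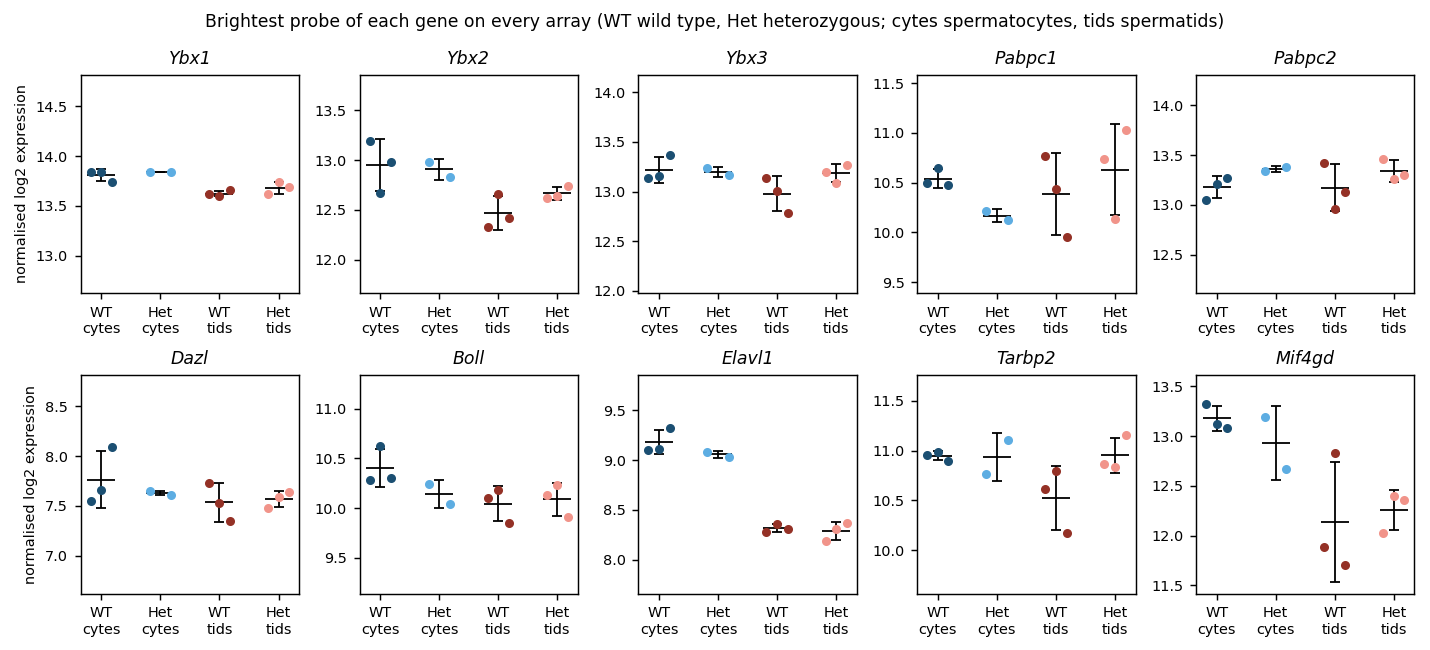
Normalised log2 expression of the brightest probe of each of the 10 genes on every array, by group, with points for arrays, a horizontal line for the mean and bars for the SD, and each panel spans the same number of log2 units. The spermatid arrays of Elavl1 lie below its spermatocyte arrays in both genotypes, from 8.19 to 8.37 against 9.04 to 9.32, while Pabpc2 and Dazl overlap.

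Poly(A)-binding proteins coat the tail of an mRNA and link it to the initiation complex at the cap. Pabpc1, the general cytoplasmic form, had 3 probes that did not move alike. Its brightest probe (2650180) read 10.50, 10.65 and 10.48 in wild type spermatocytes, 10.22 and 10.12 in heterozygous spermatocytes, 10.77, 10.44 and 9.95 in wild type spermatids, and 10.74, 10.13 and 11.02 in heterozygous spermatids. The spermatid values were more scattered than the spermatocyte values, and the difference in wild type was -0.16 (SE 0.25, adjusted p = 0.833). The dimmest probe (6020632) read 10.00, 10.18 and 10.67 in wild type spermatocytes and 9.43, 9.44 and 9.18 in wild type spermatids, with no overlap. Its log2 difference was -0.93 (SE 0.19, adjusted p = 0.0161), a fold of 1.91 lower. The call held in 19 of 20 alternative settings and was lost without wild type spermatid array 3 (adjusted p = 0.0519). In heterozygous cells this probe read 10.03 and 9.73 in spermatocytes and 9.51, 8.97 and 9.19 in spermatids (-0.65, adjusted p = 0.0943), whereas the remaining probe (2690253) had an estimate above 0 there (0.76, adjusted p = 0.1).

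Pabpc2 encodes a testis poly(A)-binding protein of the mouse made from an intronless gene on chromosome 18, and had 1 probe (1990270). It read 13.05, 13.21 and 13.27 in wild type spermatocytes, 13.34 and 13.38 in heterozygous spermatocytes, 13.42, 12.95 and 13.13 in wild type spermatids, and 13.47, 13.26 and 13.30 in heterozygous spermatids. Spermatids and spermatocytes overlapped in both genotypes. The interval of the difference ran from -0.27 to 0.26 in wild type cells and from -0.31 to 0.28 in heterozygous cells.

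DAZ-family proteins bind mRNA in germ cells and recruit poly(A)-binding protein. Dazl acts from early germ cell stages on, and Boll is needed in mice for spermatids to develop. The brightest Dazl probe (4050082) read 7.55, 7.66 and 8.09 in wild type spermatocytes, 7.65 and 7.61 in heterozygous spermatocytes, 7.73, 7.53 and 7.35 in wild type spermatids, and 7.48, 7.59 and 7.64 in heterozygous spermatids. The groups overlapped and neither difference passed, at -0.23 in wild type (adjusted p = 0.442) and -0.06 in heterozygous cells (adjusted p = 0.91). The other Dazl probe (103800048), matched to a cDNA clone, read 7.30 to 7.33 in wild type spermatocytes and 7.42 to 7.77 in wild type spermatids. It was the 1 member probe whose wild type spermatid arrays all lay above the spermatocyte arrays, by 0.27 (adjusted p = 0.104).

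Boll had 2 probes on the same transcript. The brightest (102810392) read 10.28, 10.63 and 10.31 in wild type spermatocytes, 10.24 and 10.04 in heterozygous spermatocytes, 10.10, 10.18 and 9.85 in wild type spermatids, and 10.13, 10.23 and 9.91 in heterozygous spermatids. In the wild type the spermatid arrays lay below the spermatocyte arrays, by -0.36 (SE 0.13, adjusted p = 0.133), and in the heterozygous mice the groups overlapped, at -0.06 (adjusted p = 0.914). The dimmer probe (6100743) read 8.82, 9.07 and 8.96 in wild type spermatocytes and 8.49, 8.35 and 7.79 in wild type spermatids, a difference of -0.74 (SE 0.21, adjusted p = 0.0608) that missed the threshold.

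Elavl1 encodes HuR, a protein that binds AU-rich stretches and stabilises mRNAs, and its difference between the cell types held in every alternative setting run. Its brightest probe (4730497) read 9.11, 9.11 and 9.32 in wild type spermatocytes, 9.08 and 9.04 in heterozygous spermatocytes, 8.28, 8.36 and 8.31 in wild type spermatids, and 8.19, 8.31 and 8.37 in heterozygous spermatids. Every spermatid array was below every spermatocyte array. The log2 difference was -0.87 in wild type (SE 0.07, adjusted p = 0.000501, 1.82-fold lower) and -0.77 in heterozygous cells (SE 0.08, adjusted p = 0.00131, 1.70-fold lower). Both calls held in 21 of 21 alternative settings, with a highest adjusted p of 0.0043 and 0.0118. Averaged over its 4 probes, the gene differed by -0.43 in wild type and -0.36 in heterozygous cells.

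The other 3 Elavl1 probes were dimmer. Probe 106180315 read 7.48, 7.59 and 7.54 in wild type spermatocytes and 7.08, 7.13 and 7.05 in wild type spermatids, and 7.63 and 7.26 against 6.91, 7.07 and 6.85 in heterozygous cells. It was lower in spermatids of both genotypes, at -0.45 in wild type (adjusted p = 0.0193) and -0.50 in heterozygous cells (adjusted p = 0.02). The wild type call was lost without wild type spermatocyte array 2 or 3 or wild type spermatid array 1 or 3 (adjusted p up to 0.0671), and the heterozygous call without heterozygous spermatocyte array 1 or heterozygous spermatid array 3 (up to 0.114). Over all alternative settings each was kept in 16 of 20, with adjusted p of up to 0.0671 and 0.128. Probe 104230093 had estimates of -0.43 and -0.50 that did not pass (adjusted p = 0.0905 and 0.0763). Probe 103520671, matched to a cDNA clone, had estimates of 0.03 (adjusted p = 0.96) and 0.33 (adjusted p = 0.309).

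Tarbp2 encodes a double-stranded RNA-binding protein that partners Dicer and is needed in mice for protamine mRNA to be translated on time. Its brightest probe (4760377) read 10.96, 10.99 and 10.90 in wild type spermatocytes, 10.77 and 11.11 in heterozygous spermatocytes, 10.62, 10.80 and 10.17 in wild type spermatids, and 10.87, 10.84 and 11.15 in heterozygous spermatids. In wild type the spermatid arrays lay below the spermatocyte arrays but the difference of -0.42 did not pass (SE 0.16, adjusted p = 0.156), and in heterozygous cells it was 0.01 (adjusted p = 0.986). Probe 380026 read 10.37, 10.68 and 10.53 in wild type spermatocytes, 10.33 and 10.66 in heterozygous spermatocytes, 9.55, 9.78 and 9.32 in wild type spermatids, and 9.66, 9.83 and 9.36 in heterozygous spermatids. Every spermatid array was below every spermatocyte array. The log2 difference was -0.97 in wild type (SE 0.16, adjusted p = 0.0066, 1.96-fold lower) and -0.88 in heterozygous cells (SE 0.18, adjusted p = 0.0156, 1.84-fold lower). The first held in 20 of 20 alternative settings and the second in 18 of 20, being lost without heterozygous spermatocyte array 2 (-0.71, adjusted p = 0.113) and with only the arrays of the groups compared in the fit. Over all settings the adjusted p of the second ran from 0.00418 to 0.113.

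Mif4gd encodes SLIP1, a small protein with the middle domain of eIF4G that promotes translation of histone mRNAs. Its brightest probe (6130685) read 13.32, 13.12 and 13.08 in wild type spermatocytes, 13.19 and 12.67 in heterozygous spermatocytes, 11.88, 12.83 and 11.71 in wild type spermatids, and 12.03, 12.39 and 12.36 in heterozygous spermatids. Spermatid arrays lay below spermatocyte arrays in both genotypes, and wild type spermatid array 2 stood above the other two of its group. The difference was -1.04 in wild type (SE 0.27, adjusted p = 0.0418, 2.05-fold lower) and -0.67 in heterozygous cells (SE 0.31, adjusted p = 0.244). The wild type call was kept in 2 of 11 refits without 1 array, those without spermatid array 2 of either genotype, and the adjusted p over the 11 ran from 0.00293 to 0.137. Over all alternative settings it was kept in 9 of 21. The second probe (4610600) read 10.70, 10.82 and 10.78 in wild type spermatocytes and 10.36, 10.39 and 9.92 in wild type spermatids, a difference of -0.54 (SE 0.13, adjusted p = 0.0301). That call was lost without any one of the 5 spermatocyte arrays (adjusted p up to 0.0951) and was kept in 12 of 20 alternative settings. In heterozygous cells the probe read 10.86 and 10.73 in spermatocytes and 10.57, 10.73 and 10.89 in spermatids, with groups overlapping at -0.06 (adjusted p = 0.897).

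Probes of a single gene were also set against each other within each array, because an overall factor of an array cancels in a difference between 2 probes on it. The quantile normalisation depends on the level of a probe and does not cancel. For each of the 16 probes that were not the brightest of their gene, its log2 value minus that of the brightest probe was compared between 6 spermatid and 5 spermatocyte arrays by a two-sided exact permutation test over the 200 ways of assigning arrays within genotype, adjusted over the 16 pairs. The test was chosen after the values had been seen. In 7 pairs the adjusted p was under 0.05, and in 4 of them the cell types did not overlap. The 4 pairs had the smallest exact p that 200 splits can give, 0.005 (adjusted p = 0.02).

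The Pabpc1 difference (6020632 minus 2650180) lay between -0.50 and 0.19 in spermatocytes and between -1.83 and -0.77 in spermatids, a shift of -0.95. The Tarbp2 difference (380026 minus 4760377) lay between -0.59 and -0.31 in spermatocytes and between -1.79 and -0.85 in spermatids, a shift of -0.72. So these probes were lower in spermatids relative to the brightest probe of the same gene. The other 2 pairs shifted upwards: the Elavl1 difference (103520671 minus 4730497) went from between -1.79 and -1.24 to between -0.79 and -0.20, a shift of 1.00, and the Dazl difference (103800048 minus 4050082) from between -0.77 and -0.25 to between -0.17 and 0.24, a shift of 0.40. Without 1 array fewer splits exist and the adjusted p of these 4 pairs ranged from 0.0267 to 0.08. The other 3 pairs that passed overlapped between cell types. Their shifts were 0.35 (104230093) and 0.34 (106180315) for Elavl1 and 0.55 for Mif4gd, each with an adjusted p of 0.0343. These 3 calls were kept in 2, 3 and 1 of the 11 repeats without 1 array, with an adjusted p of up to 0.111. Elavl1 probe 103520671 itself differed by 0.03 in wild type and 0.33 in heterozygous cells, beside -0.87 and -0.77 for the brightest probe. Which exons or transcripts the probes read is not given in the sources used here. Over all arrays, Pabpc1 6020632 and Tarbp2 380026 had mean levels of 9.67 and 10.01, and Elavl1 103520671 and Dazl 103800048 of 7.73 and 7.41. Neither cross-hybridisation nor signal level was tested as a source of the shifts. Each cell type had a BeadChip of its own, and a BeadChip effect on single probes does not cancel in these differences.

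**Figure D3:**
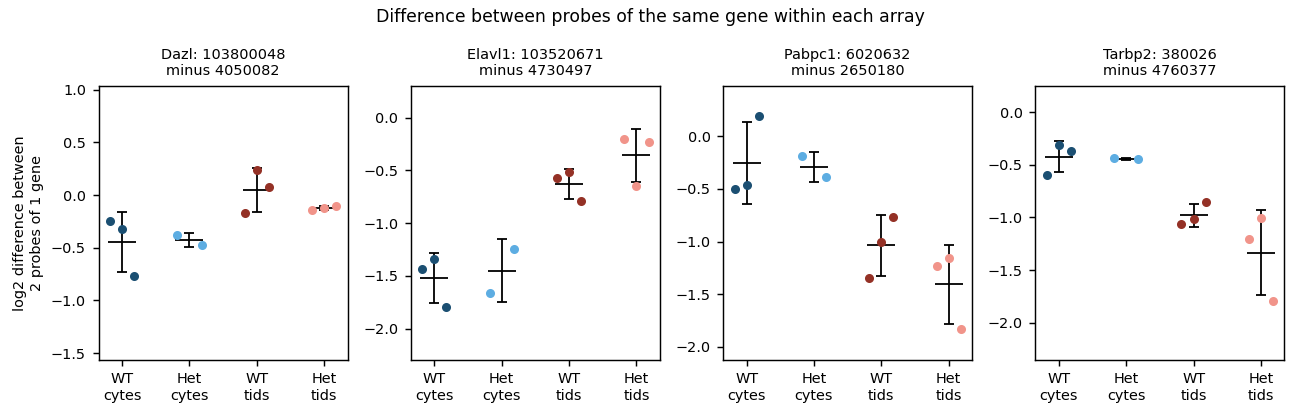
Log2 difference between 2 probes of 1 gene on each array, by group, for the 4 pairs whose cell types did not overlap, with points for arrays, a line for the mean and bars for the SD. The Pabpc1 and Tarbp2 differences are lower in spermatids (shifts of -0.95 and -0.72) and the Elavl1 and Dazl differences higher (1.00 and 0.40).

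Between the genotypes, 1 member probe passed in spermatids and none in spermatocytes. In spermatids this was 1 of 26 probes, higher in heterozygous cells, beside 0.44% of all probes called in either direction, 0.268% higher and 0.172% lower. At an unadjusted p under 0.05 there were 3 of 26 in spermatids, beside 5.17%. In spermatocytes 0 of 26 passed by limma, beside 0.186% of all probes in either direction, 0.1% higher and 0.0858% lower, and 0 of 26 had an unadjusted p under 0.05, beside 2.92%. These calls over all probes come from adjustment over the cell type and genotype contrasts together. With adjustment within each contrast alone, 0 of all probes passed between spermatids of the genotypes and 1 between spermatocytes. The member probe that passed in spermatids under the joint adjustment was that of Mif4gd described above (4610600). It read 10.36, 10.39 and 9.92 in wild type and 10.57, 10.73 and 10.89 in heterozygous spermatids, so that all 3 heterozygous arrays lay above all 3 wild type arrays. The log2 difference was 0.50 (SE 0.13, interval 0.21 to 0.80, adjusted p = 0.0389, 1.42-fold higher). This difference and the lower wild type spermatid level of the same probe rest on the same 3 wild type spermatid arrays.

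The Mif4gd call between genotypes depended on the fit. It held in 6 of 20 alternative settings, with adjusted p from 0.0307 to 0.874, and in 2 of 11 refits without 1 array, those without wild type spermatid array 2 or heterozygous spermatid array 1. Without any other single array it was lost, with a highest adjusted p of 0.115 without heterozygous spermatid array 3. Without wild type spermatid array 3, the lowest of its group, the difference was 0.35. With adjustment within each contrast alone it was also lost. The brightest Mif4gd probe (6130685) read 11.88, 12.83 and 11.71 in wild type and 12.03, 12.39 and 12.36 in heterozygous spermatids, which overlapped, with a difference of 0.12 (interval -0.50 to 0.74, adjusted p = 0.896).

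In all, 3 of 26 probes had heterozygous spermatid arrays above every wild type one and 0 had them below, beside 9.48% of all probes in either direction, 6.21% above and 3.27% below. The others after Mif4gd were both of Tarbp2. Probe 60369 read 9.45, 9.41 and 8.87 in wild type and 9.70, 9.67 and 10.13 in heterozygous spermatids, a difference of 0.59 (SE 0.18, adjusted p = 0.0757). Probe 4760377 read 10.62, 10.80 and 10.17 against 10.87, 10.84 and 11.15, a difference of 0.42 (SE 0.16, adjusted p = 0.153). Neither passed, and the third Tarbp2 probe (380026), the one that was lower in spermatids of both genotypes, differed by 0.07 with an interval of -0.29 to 0.43.

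**Figure D4:**
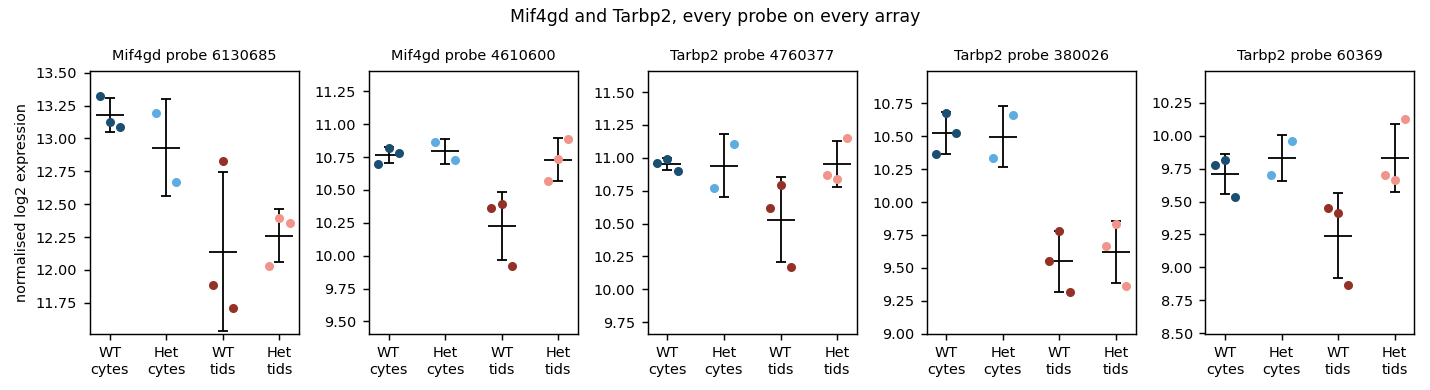
Normalised log2 expression of both Mif4gd probes and all 3 Tarbp2 probes on every array, by group, with points for arrays, a line for the mean and bars for the SD. Heterozygous spermatid arrays lie above wild type ones for Mif4gd 4610600 and for Tarbp2 4760377 and 60369, and wild type spermatid array 3 is the lowest point of its group in every panel.

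Over the 26 probes, the median genotype difference was 0.07 in spermatids, with 18 estimates above 0 and 8 below, and -0.09 in spermatocytes, with 6 above and 20 below. Over all probes the medians were 0.01 and 0.00. The spermatocyte differences ran from -0.50 for Ybx3 (3060053) to 0.32 for Ybx1 (102260019), and the Boll probes (-0.26 and -0.42), the brightest Pabpc1 probe (-0.37) and the brightest Elavl1 probe (-0.12) were among 7 whose heterozygous arrays all lay below the wild type arrays, beside 11.3% of all probes. Pabpc2 was the 1 probe with both heterozygous spermatocyte arrays above the wild type, by 0.18 (adjusted p = 0.536), beside 11.5% of all probes above and 22.8% in either direction. None of these passed. The difference between the genotype effects of the 2 cell types, tested as an interaction, passed for 0 of the 27986 probes by limma, 2.02% having an unadjusted p under 0.05, and among the members for Mif4gd 4610600 alone before adjustment (0.48, unadjusted p = 0.0383, adjusted p = 1). Its estimate was above 0 for 21 of 26 probes, with a median of 0.23 against 0.01 over all probes. The 26 probes belong to 10 genes and were read on the same arrays, so counts of estimates above or below 0 are not counts of independent results. Leaving out 1 array at a time gave 20 to 23 estimates above 0 and medians from 0.14, without wild type spermatocyte array 3, to 0.28, without wild type spermatid array 2. The median was 0.15 without wild type spermatid array 3. That spermatid array was the lowest of its group for 19 of 26 member probes, or 73.1%, against 42.4% of all probes tested and 51.2% of probes with a mean over 10. Wild type spermatocyte array 1 was the lowest of its group for 16 of 26, or 61.5%, against 32% and 28.5%, and without it the median was 0.27. The part of these arrays in the estimates of single probes was not tested further.

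Among other genes of mRNA storage and translation, 97 were listed in 8 groups and 81 were measured, each by its brightest probe. Between the wild type cell types 12 were higher and 20 lower in spermatids (39.5%, against 27% of all probes). Between the heterozygous cell types 5 were higher and 9 lower (17.3%, against 17.8%). Between genotypes none passed in spermatocytes or spermatids, beside 0.186% and 0.44% of all probes. An unadjusted p under 0.05 by limma was reached by 4 in spermatocytes and 6 in spermatids, beside 2.92% and 5.17% of all probes. These shares are not measured alike, because each listed gene counts by its brightest probe and the share of all probes counts every kept probe. The lists were also chosen with earlier results of these data known, so their shares are no test of the pathway. Of the 12 higher genes, 4 came from the list of stored mRNAs. Values in parentheses for these genes are log2 differences, spermatids minus spermatocytes, with limma's adjusted p. Blood and macrophage markers differed between the same groups of arrays, as given above.

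Beside the list counts that follow, 15.5% of all probes were lower and 11.5% higher in wild type spermatids. In heterozygous spermatids 9.15% were lower and 8.65% higher. The lists are short, and none was tested against these shares. Of 6 mRNAs known to be stored in germ cells, 4 were higher and 0 lower in wild type spermatids. They were Smcp, a sperm mitochondrial protein (2.48, adjusted p = 0.00158), the protamines Prm2 (2.51, adjusted p = 0.00965) and Prm1 (1.14, adjusted p = 0.0354), which replace histones in sperm, and the transition protein Tnp2 (1.95, adjusted p = 0.0118). In heterozygous cells 1 of 6 passed, Smcp (2.13, adjusted p = 0.00427). The list is one of spermatid genes as well as of stored mRNAs, and 4 of its 6 members are also round spermatid markers. Of the double-stranded RNA-binding group to which Tarbp2 belongs, 5 of 10 were lower and 0 higher in wild type spermatids, among them Stau1, an mRNA transport protein (-1.97, adjusted p = 0.00347), Ilf2 (-0.76, adjusted p = 0.0177), Adad2 (-0.96, adjusted p = 0.0209) and Ago2, the slicing Argonaute (-1.48, adjusted p = 0.0369). In heterozygous spermatids 3 of 10 were lower, Stau1 (-1.53, adjusted p = 0.0145), Ilf2 (-0.76, adjusted p = 0.028) and Ago2 (-1.61, adjusted p = 0.0409). Of the genes of storage bodies, 4 of 11 were lower and 1 higher in wild type spermatids, including the decapping activator Ddx6 (-1.47, adjusted p = 0.00557), the eIF4E transporter Eif4enif1 (-0.76, adjusted p = 0.00304) and Tsn, which encodes translin (-0.49, adjusted p = 0.00415), against Lsm14a (0.74, adjusted p = 0.00696). In heterozygous spermatids 2 of 11 were lower, Ddx6 (-1.71, adjusted p = 0.00484) and Tsn (-0.43, adjusted p = 0.0106).

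Of 14 genes of cap binding and initiation, 4 were lower and 1 higher in wild type spermatids, beside 15.5% and 11.5% of all probes. The direction differed between members of the 4E-binding protein family, which block eIF4E. Eif4ebp1 was higher (1.67, adjusted p = 0.00116), and Eif4ebp3 (-0.48, adjusted p = 0.00472), Eif4a2 (-1.23, adjusted p = 0.00585) and Eif4e itself (-0.84, adjusted p = 0.0347) were lower. In heterozygous spermatids 1 of 14 was higher, Eif4ebp1 (1.32, adjusted p = 0.00421), and 1 lower, Eif4ebp3 (-0.45, adjusted p = 0.00967). Of all probes 8.65% were higher and 9.15% lower there. Of 12 genes of poly(A) binding and tail length, 3 were higher and 1 lower: the RNA-binding protein Msi2 (1.37, adjusted p = 0.00235), the poly(A) polymerase Papola (0.96, adjusted p = 0.0306) and Pabpc4 (0.81, adjusted p = 0.0315) were higher, and Paip1, which binds Pabpc1, was lower (-1.63, adjusted p = 0.00407). In heterozygous spermatids Papola was higher (1.20, adjusted p = 0.0194) and Paip1 lower (-1.15, adjusted p = 0.0245), the only 2 of the 12 that passed. Paip1, the cap-binding subunit Ncbp2 (-0.91, adjusted p = 0.00416) and the helicase Dhx9 (-0.97, adjusted p = 0.0115) were the 3 of 5 that passed in a short list of genes for proteins with a MIF4G domain and their partners, all lower, and the same 3 were lower in heterozygous spermatids (Dhx9 by -1.10, adjusted p = 0.0111, and Ncbp2 by -0.59, adjusted p = 0.0354). Of 20 regulators that bind sequences in mRNA, 4 were lower and 2 higher in wild type spermatids, with Khdrbs1 (-1.04, adjusted p = 0.00986), Cpeb4 (-0.69, adjusted p = 0.0409) and Celf1 (-0.72, adjusted p = 0.0486) lower and Elavl2 (0.45, adjusted p = 0.0463) higher, and the median was -0.06. In heterozygous spermatids 0 of 20 were lower and 1 was higher, Rc3h1 (0.68, adjusted p = 0.0453), with a median of 0.09. In the cold-shock group 1 of 4 passed, Carhsp1, which was higher in spermatids of the wild type (1.08, adjusted p = 0.00956) and of the heterozygous mice (1.06, adjusted p = 0.0159).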

How the data were processed

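Signals were read out in BeadStudio and handled in lumi, neither with a stated version: the authors took off the mean of the negative control beads, stabilised the variance, and quantile normalised the deposited log2 values between arrays. Array medians were 6.87, so values are relative within an array, and the number of arrays limits the precision. A second deposited table has 22 per-sample columns whose names match no sample; it was not used. The platform names 1 gene for 32794 probes, several for 55 and no gene for 13794. The RefSeq tables of GRCm38.p6 held 32722 of the single symbols and gave the promoters.

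A mean per group was fitted over 11 arrays with limma 3.58.1 in R 4.3.3 (7 residual and 1.89 prior degrees of freedom), after leaving out the 40% of probes with the lowest mean. P-values were adjusted by Benjamini-Hochberg at 0.05, jointly for every kept probe in the 4 contrasts, and separately for the interaction. The script was tested on simulated data. Named were all member probes and, per list and contrast, up to 4 called genes by smallest p. Alternatives were other filters, adjustments, priors, array weights, gene means, a replicate block and left-out arrays. The members and lists were chosen with earlier results of these data known. A replicate is a labelled preparation.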

Additional observations from a re-analysis of the deposited data

How the results depend on the processing

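Of the 26 member probes, 7 passed between wild type spermatids and spermatocytes, 3 between the heterozygous ones, 0 between spermatocytes of the genotypes, 1 between spermatids and 0 for the interaction. The wild type count was 12 with adjustment within each contrast, 4 with only the groups compared in the fit and 11 with array weights. The 12 and the 11 each included 1 probe called higher, Dazl 103800048. More of all probes were called in those 2 settings as well, and fewer with only the groups compared. The wild type count was 4 to 9 with 1 array left out. The heterozygous count was 1 with only the groups compared, 6 with array weights and 1 with gene means. It was 6 without both spermatid arrays numbered 2, and 2 to 5 with 1 array left out. With array weights 1 of the 6 was higher, Pabpc1 2690253. Fewer of all probes were called with only the groups compared. More were called with array weights and without both spermatid arrays numbered 2. The count between spermatids was 0 with no filter, with adjustment within each contrast, with only the groups compared, with an intensity trend in the prior, with the replicate block and with gene means, and 0 to 1 with 1 array left out. The counts between spermatocytes and for the interaction were 0 throughout, and no difference of a member probe changed direction while passing. With the replicate block the counts were 5, 2, 0, 0 and 0. Same-numbered arrays deviated together in some pairs and not in others (correlations from -0.256 to 0.329), and wild type spermatid array 1 correlated better with heterozygous spermatid array 3 (0.359) than with its namesake (0.285), so the numbers were not taken to pair samples. A start from bead signals was not run, since those columns match no sample. The cause of a changed count was not tested in any setting. Leaving out an array also changes the degrees of freedom, the prior and the joint adjustment. Close to the top of the scale, as for Ybx1 1340039, and close to the filter, as for Ybx1 107320471, a difference can be understated.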
